A study of Drosophila melanogaster with 9 samples.

Results

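Samples labelled L(3)mbt mutant were compared with samples labelled yw across all genes of a poly-A RNA-seq count table. The comparison took in 6 of the 9 libraries of the series (3 per group). The rule for membership was the group named in the labels, and no measured value was used. In the study, the L(3)mbt mutant strain carried the temperature-sensitive l(3)mbt allele ts1, kept over the balancer TM6b in a w* stock. The yw strain, which carries mutations in the pigmentation genes yellow and white (y1 w1118), served as the wild type. Per the labels, larvae of both groups were raised at 29 °C for 5 to 6 days after eggs had been laid at 25 °C, and the RNA came from L3 brains, which the markers below do not bear out. The 3 libraries of the third group, a Lint-O mutant, entered the fit and 1 direct comparison. The study calls the triplicates biological, but nothing says how many animals each library pooled.

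L(3)mbt is a chromatin protein with repeats of the malignant brain tumour (MBT) type, which bind methylated histone tails. It belongs to repressor complexes called LINT and dREAM, and dREAM also contains E2F and Myb factors and controls cell cycle genes. Larvae that lack it develop overgrown brains in which genes normally restricted to the germline are transcribed. Lint-O is a protein with PHD fingers and a SAM domain that was isolated in the study as a partner of L(3)mbt.

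Total counts were 21675315 to 27971416 in the L(3)mbt mutant and 20275676 to 31519287 in yw. The l(3)mbt gene (chromosome 3R, 27266326 to 27273273 of BDGP6, the assembly with dm6 coordinates) had 1733, 1909 and 1744 normalized counts in the L(3)mbt mutant, against 2915, 3326 and 3371 in yw (log2 fold change -0.84, SE 0.07). Lint-O was not called in this mutant (0.19, adjusted p = 0.122), and neither were y and w (-0.10 and -0.37, adjusted p = 0.583 and 0.051). Brain markers were partly absent. Under 1 CPM (counts scaled to equal library totals) in all 9 libraries were 5 of 8 neuroblast markers (dpn, ase, pros, grh and klu), 6 of 9 neuron markers (nSyb, brp, Syt1, fne, para and Rdl) and 2 of 7 glia markers (repo and alrm). All 7 ovarian somatic markers were above 10 CPM in all 9 libraries, with a summed level of 1148 to 1235 CPM in the L(3)mbt mutant and 1059 to 1366 CPM in yw. Over all 9 libraries, tj was at 403 to 623 CPM, zfh1 at 272 to 372 and fs(1)Yb at 138 to 166. Among neural markers, dpn, ase and repo reached at most 0.0535, 0.0461 and 0.138 CPM, while elav was at 48 to 74.1 and loco at 132 to 173. The yw columns carry the name EGFP in the sample descriptions. The study also used RNAi in cultured ovarian somatic cells, with GFP siRNA as the control, and its methods describe RNA-seq triplicates of RNAi-treated samples. Whether the counts come from the labelled brains or from such cells was not tested. In the second case the groups would be knockdowns and a control in place of fly strains. Group names below are those of the labels. In bulk RNA, fewer cells of a type and less RNA per cell cannot be told apart.

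Of 10687 genes tested, 1936 rose in the L(3)mbt mutant (18.1% of those tested) and 1344 fell (12.6%). Calls were made by DESeq2 with an adjusted p below 0.01, and named genes passed unless stated otherwise. Increases among the calls were larger than decreases. The median increase was 2.4-fold and the median decrease 1.26-fold, and with a minimum of 2-fold 1082 genes were higher (10.1%) and 74 lower (0.692%). Direction also went with the level in yw. Among 1768 tested genes with a yw mean of 10 to 100 normalized counts, 519 were higher and 42 lower, whereas among 383 genes above 10000 normalized counts, 21 were higher and 126 lower. The split depended on scaling, since total counts as size factors gave 2261 higher and 914 lower. The median log2 fold change of 8933 expressed genes was -0.021 with the size factors used and 0.037 with total counts. The values of the groups did not overlap for 50.9% of the tested genes.

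**Figure D1:**
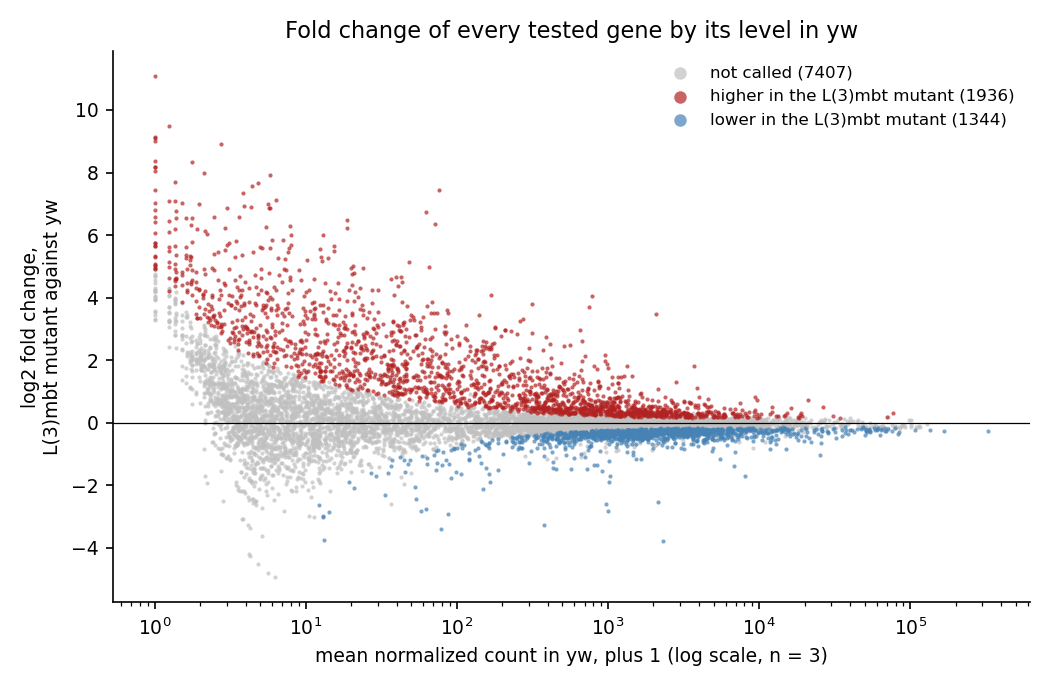
Each point is 1 of the 10687 tested genes. The x axis is its mean normalized count in yw plus 1 (log scale, n = 3), the y axis its log2 fold change in the L(3)mbt mutant against yw, with 1936 genes called higher (red), 1344 called lower (blue) and 7407 not called (grey). Large increases lie at low yw levels, where fitted fold changes of genes with 0 counts in yw are no bounds, and most decreases lie within a log2 unit of 0.

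Functional groups were then described by 77 gene lists. Those with over 40% of tested members higher were the innexins (5 of 8), germline development (20 of 35), the germline piRNA genes (13 of 25), meiotic chromosome structure (14 of 32), the Toll and Imd pathways (20 of 47), extracellular matrix and integrins (13 of 31), chaperones (13 of 32), and actin, tubulin and muscle proteins (15 of 37). The largest shares of lower members were in ribosome biogenesis (31 of 43) and the aminoacyl-tRNA synthetases (22 of 35). Lists of genes that are silent in yw mostly pass the low-count filter through the L(3)mbt mutant, so their shares among tested members are a description only.

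**Figure D2:**
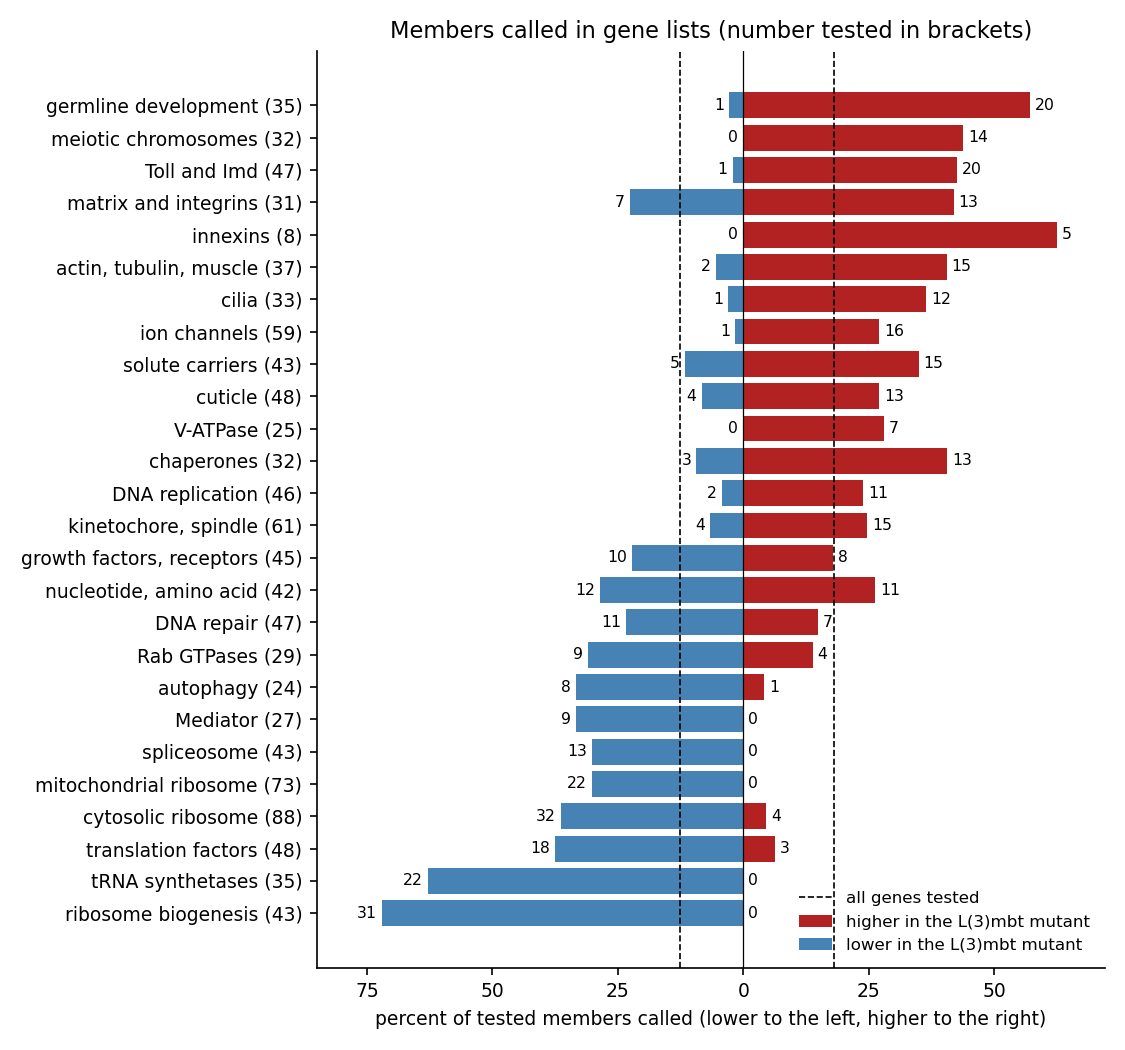
Bars give the percent of tested members of 26 gene lists called higher (red, to the right) or lower (blue, to the left) in the L(3)mbt mutant, with the number called beside each bar and the number tested in brackets. Dashed lines mark all genes tested (18.1% higher, 12.6% lower), and the lists for translation stand at the bottom with up to 72.1% of members lower.

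The strongest increases outside the piRNA pathway fell on genes of unlike function. Pxt, a heme peroxidase needed for egg chamber development, had 431, 405 and 351 normalized counts in the L(3)mbt mutant and none in any yw library, at least 132-fold higher against a floor of 3 counts per library. cona (chromosome 3R, 18385828 to 18386887), which encodes a part of the synaptonemal complex that holds paired meiotic chromosomes together, had 13309, 13394 and 13169 in the mutant, against 78.7, 64 and 82.2 in yw (log2 fold change 7.45, SE 0.11). BigH1, the linker histone of the early embryo and the germline, had 1188, 1123 and 951, against 3.23, 8.15 and 3.04 in yw (7.91, SE 0.40). These genes were far apart in the 2 groups in every library.

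Signalling and adhesion genes were among the same top genes. Actbeta, an activin-type ligand of the TGF-beta family, had 445, 483 and 505 normalized counts in the L(3)mbt mutant, against 4.31, 1.16 and 3.04 in yw (7.36, SE 0.50). alpha-Catr, related to the adherens junction protein alpha-Catenin, had 635, 640 and 574, against 2.16, 5.82 and 2.28 in yw (7.57, SE 0.48). The remaining top genes carry no assigned name. CG9372 had 780, 845 and 709, against 4.31, 3.49 and 3.81 in yw (7.65, SE 0.43). CG9068, CG33257, CG3698 and CG30380 had 1 to 5 raw reads over the 3 yw libraries together. Ratios of their depth-adjusted totals were 776 for CG9068 (95% exact counting interval 139 to 30671), 480 for CG33257 (205 to 1480), 321 for CG3698 (88.6 to 2659) and 255 for CG30380 (87 to 1239).

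The 5 lists of the translation machinery had larger shares of lower genes than the 12.6% of all genes, by small amounts per gene. In ribosome biogenesis and the aminoacyl-tRNA synthetases most tested members were lower, in the other lists fewer (36.4% of cytosolic ribosomal proteins, 30.1% of mitochondrial ones and 37.5% of translation factors). Of all genes tested, 22.6% were lower at a yw mean of 1000 to 10000 normalized counts and 32.9% above 10000. Median yw means were 3327 for ribosome biogenesis, 3924 for the synthetases, 56886 for cytosolic and 1154 for mitochondrial ribosomal proteins and 9059 for translation factors. The share of cytosolic ribosomal proteins was thus near that of genes at their level. Of 43 ribosome biogenesis genes tested, 31 were lower and none higher, with a median log2 fold change of -0.26, beside -0.01 over all genes. mod, a nucleolar protein (modulo), had 8806, 8775 and 8519 normalized counts in the L(3)mbt mutant, against 12171, 12600 and 13391 in yw (-0.55, SE 0.06). RIOK1, a kinase of small subunit maturation, was at 1210, 1142 and 1245, against 1636, 1752 and 1736 in yw (-0.51, SE 0.07). Polr1B, a large subunit of RNA polymerase I, was at 1559, 1555 and 1518, against 2033, 2168 and 2354 in yw (-0.50, SE 0.07). None of these values overlapped between groups. Across the alternative scalings, tools and left-out libraries, 25 to 34 members were lower and none higher.

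Aminoacyl-tRNA synthetases, which charge tRNAs with their amino acids, gave 22 lower and no higher gene among 35 (median -0.29). IleRS had 8466, 7866 and 7928 normalized counts in the L(3)mbt mutant, against 11705, 12136 and 11985 in yw (-0.56, SE 0.05). ValRS and GluProRS fell by 0.54 and 0.52 on the log2 scale. Slimp, a mitochondrial relative of seryl-tRNA synthetase, had 355, 318 and 350, against 600, 552 and 590 in yw (-0.77, SE 0.10). Both cytoplasmic and mitochondrial enzymes were among the lower genes, as AlaRS fell by 0.44 and AlaRS-m by 0.43.

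Among 88 cytosolic ribosomal proteins, 32 were lower and 4 higher (median -0.17). RpL5, which with 5S rRNA forms an early part of the large subunit, had 63653, 58377 and 68927 normalized counts in the L(3)mbt mutant, against 83237, 77665 and 86740 in yw (-0.37, SE 0.07). RpL36 fell by 0.38 and RpL29 by 0.33 on the log2 scale. The number of lower ribosomal proteins moved with scaling and with single libraries. It was 49 with TMM factors, 16 with total counts, 55 without L(3)mbt replicate 3, 15 and 19 without L(3)mbt replicates 2 and 1, and 18 and 21 without yw replicates 3 and 1. Of 73 mitochondrial ribosomal proteins, 22 were lower and none higher (median -0.18), with 14 lower without L(3)mbt replicate 2 or with total counts, which also called 2 higher. Of 48 translation factors, 18 were lower and 3 higher. Thor, the 4E-BP that holds the cap-binding protein eIF4E inactive, had 4640, 5104 and 4343, against 6942, 6686 and 7197 in yw (-0.57, SE 0.06).

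The higher members of these lists were mostly paralogs of widely used genes. RpS5b (chromosome 3R, 14900432 to 14901563) had 22850, 21877 and 24352 normalized counts in the L(3)mbt mutant, against 2031, 1988 and 2171 in yw (3.48, SE 0.06). Its paralog RpS5a was not called (-0.11, SE 0.06), with 71678, 69669 and 78634 in the mutant, against 78581, 75014 and 84120 in yw. RpS19b rose by 1.10 on the log2 scale, with 2780, 2469 and 2360, against 1200, 1014 and 1317 in yw, while RpS19a was at -0.11 and not called. RpS10a and RpS15Ab rose by 0.82 and 0.40, and RpS10b and RpS15Aa were at -0.14 and -0.16, not called. Reads of near-identical copies can be exchanged between them, so the values of such copies are uncertain.

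Higher copies were also named in other lists, and since they were named for being called higher, their shared direction is no result. eEF1alpha2, which delivers charged tRNAs to the ribosome, had 769, 793 and 601 normalized counts in the L(3)mbt mutant, against 80.8, 71 and 97.4 in yw (3.10, SE 0.15), and eEF1alpha1 was lower (-0.26, SE 0.06). eIF4E6, a copy of the cap-binding protein, was at 911, 848 and 899, against 169, 159 and 114 in yw (2.61, SE 0.12), and eIF4E1 was lower (-0.17, SE 0.05), a call lost with total counts and without L(3)mbt replicate 1 or 3 or yw replicate 2 or 3. Prosbeta2R2, a copy of a catalytic proteasome subunit, had 741, 761 and 709, against 178, 176 and 173 in yw (2.07, SE 0.10), while Prosbeta2 was at -0.06 and not called. COX4L, a copy of a cytochrome c oxidase subunit, had 158, 120 and 144, against 19.4, 19.8 and 14.5 in yw (3.00, SE 0.27), and COX4 was at 0.02 and not called. PCNA2, a copy of the replication clamp, was at 218, 213 and 223, against 75.4, 82.6 and 60.1 in yw (1.60, SE 0.17), and PCNA was at 0.15 and not called. The widely used partners RpS5a, RpS19a, RpS10b, RpS15Aa, eEF1alpha1, eIF4E1, Prosbeta2, COX4 and PCNA were chosen for display after the values were seen.

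**Figure D3:**
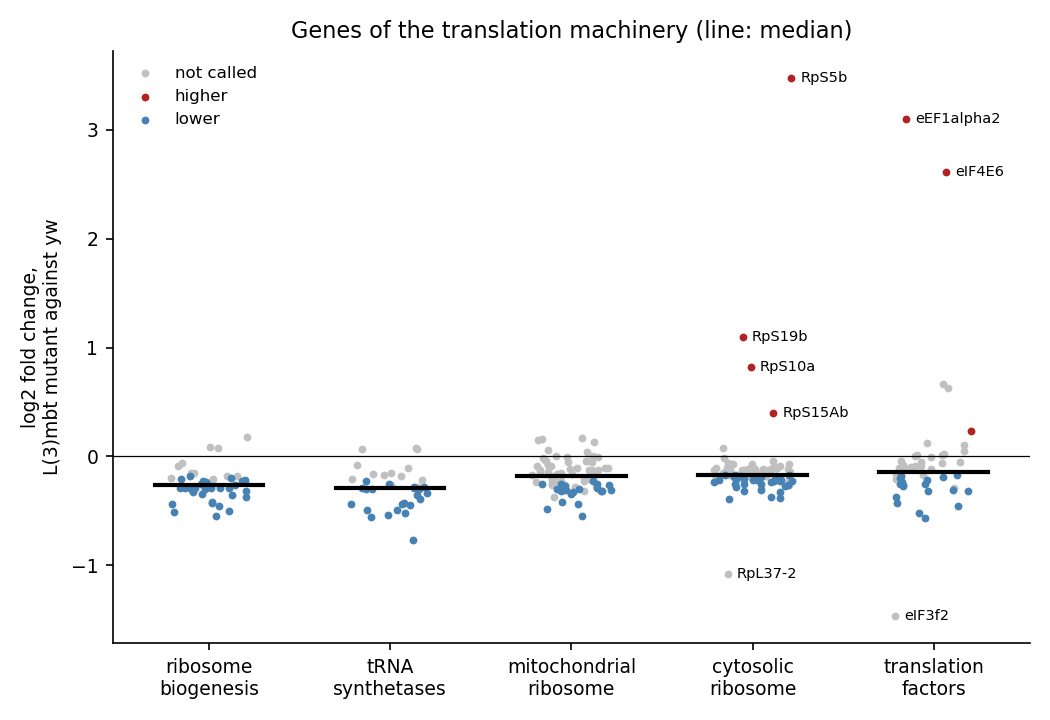
Each point is 1 tested gene of 5 translation lists, with its log2 fold change in the L(3)mbt mutant against yw on the y axis, colours for called higher (red), called lower (blue) and not called (grey), and black lines at list medians of -0.26, -0.29, -0.18, -0.17 and -0.14 from left to right. Decreases are shallow and broad, and the largest increases are RpS5b, eEF1alpha2 and eIF4E6.

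Of 25 genes of the V-ATPase, the proton pump of endomembranes, 7 were higher (28%, beside 18.1% of all genes) and none lower. Vha16-5 had 241, 274 and 268 normalized counts in the L(3)mbt mutant, against 18.3, 14 and 5.33 in yw (4.47, SE 0.29), and VhaM9.7-a was raised 72.4 times from 3 yw reads (interval 24.5 to 354). The V-ATPase list had 1 lower member with TMM factors. Of 72 respiratory chain and ATP synthase genes, 7 were higher (9.72%) and 6 lower (8.33%), shares below those of all genes. ND-15, a complex I subunit, had 92.9, 92.1 and 96.1 in the mutant and no reads in yw, at least 31.2-fold higher. ATPsynbetaL and COX7AL rose by 3.44 and 2.94 on the log2 scale. Cyt-c-p, the main cytochrome c, was lower, with 13523, 13423 and 13272, against 18776, 20201 and 20733 in yw (-0.57, SE 0.05). Lower respiratory genes numbered 2 with total counts, 3 and 2 without L(3)mbt replicates 1 and 2, and higher ones 11 with total counts or without yw replicate 3.

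Germline genes beyond the piRNA pathway were raised broadly. Of 38 listed genes of germline development and translational control, 35 were tested, 20 were higher and 1 lower (cni, a call lost with total counts and without any L(3)mbt library or yw replicate 1 or 2), with a median log2 fold change of 0.68. swa, which localizes bicoid mRNA, had 580, 620 and 592 normalized counts in the L(3)mbt mutant, against 5.39, 1.16 and 7.61 in yw (6.86, SE 0.38). nanos, a translational repressor of germ cells, was at 514, 411 and 356, against 1.08, 0 and 7.61 in yw (6.93, SE 0.46). Of its exons, 15.88% was shared with other genes. exu, also an mRNA localization factor, had 612, 722 and 659, against 126, 121 and 117 in yw (2.45, SE 0.12). bam, a differentiation factor of germline stem cell daughters, was at 186, 223 and 221, against 76.5, 89.6 and 65.5 in yw (1.46, SE 0.18). osk, which organizes germ plasm, was not called, with 9.11, 2.09 and 5.75, against 29.1, 11.6 and 7.61 in yw (adjusted p = 0.0769). However, 84.11% of its exons are shared with other genes, so the value may cover only the small rest.

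Meiotic chromosome genes gave 14 higher and no lower among 32 tested, although their median was only 0.07. Without single libraries or with edgeR or TMM factors, up to 3 were lower. sunn, a cohesion factor, had 1860, 1789 and 1636 normalized counts in the L(3)mbt mutant, against 234, 240 and 212 in yw (2.95, SE 0.10). c(3)G, the central filament protein of the synaptonemal complex, was at 758, 816 and 677, against 279, 254 and 219 in yw (1.59, SE 0.13). c(2)M rose by 2.29 and solo by 5.28 on the log2 scale, both without overlap between groups. For the piRNA pathway itself, 13 of 25 genes were higher and 4 lower. Several of these were named in the study from the same libraries, so their count is not independent evidence. The 7 germline markers summed to 405 to 475 CPM in the L(3)mbt mutant and 61.1 to 66.4 CPM in yw, and testis markers to 17.1 to 17.7 CPM and 10.3 to 12 CPM. Single genes made up most of these sums. The piRNA gene vas was at 262 to 313 CPM in the L(3)mbt mutant and 1.87 to 2.98 CPM in yw. ovo, also higher, was at 54.7 to 59.1 CPM in yw. Of the 7 germline markers 5 were called higher, osk was not called and otu stayed under 1 CPM. Among testis markers, topi was at 15.9 to 16.3 CPM in the L(3)mbt mutant and 9.32 to 11.3 CPM in yw. The other testis markers stayed under 1 CPM. The part of germline and testis markers in the results was not tested.

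Innate immunity genes were higher in 20 of 47 tested members of the Toll and Imd list and lower in 1, dl, from a list of 95 genes. Toll and Imd are the 2 pathways by which flies recognize bacteria and fungi and switch on NF-kappaB factors. Several recognition proteins were among the higher genes. PGRP-SA, a peptidoglycan sensor upstream of Toll, had 201, 214 and 227 normalized counts in the L(3)mbt mutant, against 32.3, 10.5 and 14.5 in yw (3.50, SE 0.27). GNBP3, a sensor of fungal glucans, was at 3622, 3521 and 3647, against 1205, 1286 and 1341 in yw (1.49, SE 0.06). PGRP-SC2, an amidase that degrades peptidoglycan, rose by 3.44, and PGRP-LB, also an amidase, by 0.93.

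Intracellular steps of both pathways were included. key, the IKK-gamma subunit of the Imd branch, had 8082, 8212 and 8828 normalized counts in the L(3)mbt mutant, against 3851, 3762 and 4076 in yw (1.10, SE 0.06). Among the NF-kappaB factors, Dif rose by 2.23, with 189, 201 and 189, against 41, 47.7 and 35.8 in yw, and Rel by 0.45, with 2983, 3213 and 3251, against 2228, 2231 and 2429 in yw. dl, the third family member, was lower, with 2932, 3157 and 2809, against 4044, 3772 and 3798 in yw (-0.38, SE 0.06). The receptor Tl rose by 0.72 and the Imd inhibitor pirk by 0.60. Of the peptides, Drsl5 was at 283, 321 and 217, against 65.7, 46.6 and 44.9 in yw (2.39, SE 0.19). Hemocyte markers summed to at most 1.06 CPM in the L(3)mbt mutant and 0.857 CPM in yw, and fat body markers to at most 0.0401 CPM and 0.0913 CPM. Counts ranged from 16 to 22 higher and from 1 to 4 lower across the alternatives.

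Basement membrane and matrix genes gave 13 higher and 7 lower among 31. Both chains of collagen IV were among the higher genes. Col4a1, a chain of collagen IV, had 2696, 2927 and 2697 normalized counts in the L(3)mbt mutant, against 454, 552 and 515 in yw (2.45, SE 0.09). vkg, the partner chain, was at 647, 686 and 663, against 196, 189 and 180 in yw (1.83, SE 0.11). SPARC, which binds collagen IV, rose by 0.82 and Plod, which hydroxylates collagen lysines, by 0.93. The protease Mmp2 was at 1086, 1089 and 1036, against 81.9, 76.8 and 98.2 in yw (3.62, SE 0.12), and its relative Mmp1 was lower (-0.33, SE 0.07). Integrin subunits scb, Itgbn and ItgaPS5 rose by 1.15, 1.61 and 1.76. The 7 lower members, among them the heparan sulfate proteoglycan dlp (-0.41), numbered 3 with total counts, 3 without L(3)mbt replicate 1, L(3)mbt replicate 3 or yw replicate 1, and 4 without yw replicate 2.

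All 8 innexins, the gap junction proteins of insects, were tested, and 5 were higher. Inx3 had 3274, 3541 and 3228 normalized counts in the L(3)mbt mutant, against 1324, 1110 and 1234 in yw (1.45, SE 0.07). Its partner in epithelia, Inx2, was at 8133, 8271 and 8582, against 6824, 7275 and 6051 in yw (0.31, SE 0.06). ogre rose by 0.75 and the germline innexin zpg by 4.92. Inx7 also passed (1.08, adjusted p = 0.00948), a call that was lost in 12 settings. Among junction and polarity genes, crb, an apical determinant, was at 1102, 1198 and 1226, against 311, 274 and 298 in yw (2.0, SE 0.10), while the adhesion protein Fas2 was lower, with 2671, 2742 and 2541, against 5181, 4892 and 4656 in yw (-0.89, SE 0.06).

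Genes of chitin and cuticle changed in both directions. Of 147 listed genes, 48 were tested, 13 were higher (27.1%, beside 18.1% of all genes) and 4 lower (8.33%, beside 12.6%). The median yw mean of those tested was 11 normalized counts, and 29.4% of all tested genes at 10 to 100 were higher. verm (chromosome 3L, 19690033 to 19695260), a chitin deacetylase of the tracheal matrix, had 5624, 5891 and 5781 normalized counts in the L(3)mbt mutant, against 88.4, 62.8 and 60.9 in yw (6.37, SE 0.12). Its partner serp was at 109, 101 and 112, against 5.39, 2.33 and 8.37 in yw (4.23, SE 0.43). The chitin synthase kkv had 552, 601 and 523, against 29.1, 30.3 and 28.2 in yw (4.26, SE 0.20). In contrast, Cpr62Bc, a structural protein with a chitin-binding domain, had 32.8, 63.9 and 21.4, against 406, 315 and 405 in yw (-3.27, SE 0.38), and Cpr49Ac fell by 2.93 on the log2 scale. Cpr67B, of the same family as these lower proteins, rose by 2.19.

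Neuronal gene families held some higher genes. Of 59 ion channels tested (81 listed), 16 were higher (27.1%, beside 18.1% of all genes) and 1 lower. Their median yw mean was 26.5 normalized counts, and 29.4% of all tested genes with a yw mean of 10 to 100 were higher. Lower channels numbered 4 with TMM factors, 2 with edgeR and up to 3 when 1 library was left out. Task7, a tandem-pore potassium channel, had 617, 585 and 592 normalized counts in the L(3)mbt mutant, against 6.47, 1.16 and 6.85 in yw (6.86, SE 0.38). Ca-alpha1D, a calcium channel subunit, was at 297, 326 and 311, against 19.4, 26.8 and 22.1 in yw (3.78, SE 0.22). The presynaptic calcium channel cac was at 3149, 3658 and 2767, against 1354, 1160 and 1000 in yw (1.45, SE 0.10). Acetylcholine receptor subunits went both ways. nAChRalpha3 had 569, 572 and 420, against 30.2, 8.15 and 19 in yw (4.75, SE 0.25), and nAChRalpha1, the single lower channel, had 159, 171 and 142, against 496, 421 and 378 in yw (-1.46, SE 0.13). The 9 neuron markers summed to 229 to 278 CPM in the L(3)mbt mutant and 146 to 214 CPM in yw. Of these, cac was at 120 to 161 CPM in the L(3)mbt mutant and 41.7 to 57.3 CPM in yw. Syx1A was lower (-0.32) and elav was not called (-0.31), while nSyb, brp, Syt1, fne, para and Rdl stayed under 1 CPM.

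Enzymes of transmitter synthesis also went both ways. Ddc, the decarboxylase of dopamine and serotonin synthesis, had 984, 1015 and 984 normalized counts in the L(3)mbt mutant, against 123, 98.9 and 119 in yw (3.12, SE 0.11). ple, tyrosine hydroxylase, acts a step earlier in dopamine synthesis and was lower, with 831, 970 and 690, against 1275, 1103 and 1100 in yw (-0.48, SE 0.11). Rbp9, an RNA-binding protein of the Elav family, had 710, 692 and 772, against 117, 105 and 122 in yw (2.65, SE 0.12). The neuroblast factor wor was lower, with 160, 152 and 152, against 266, 270 and 264 in yw (-0.79, SE 0.13). Of the other neuroblast markers, mira was higher (0.69) and insc was not called (0.17). The 8 neuroblast markers summed to 44.9 to 45.6 CPM in the L(3)mbt mutant and 39.5 to 46.3 CPM in yw. Of 34 immunoglobulin proteins of the Dpr, DIP, Beat and Side families, 9 were higher (26.5%, beside 18.1% of all genes) and 3 lower. Their median yw mean was 14.4 normalized counts, and 29.4% of all tested genes at 10 to 100 were higher. On the log2 scale dpr14 rose by 2.75 and dpr17 fell by 0.80. Lower members numbered 5 without yw replicate 3.

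Tubulins and muscle proteins were higher in 15 of 37 tested members and lower in 2. Among tubulins, gammaTub37C, the maternal gamma-tubulin, had 483, 444 and 476 normalized counts in the L(3)mbt mutant, against 6.47, 4.66 and 9.9 in yw (5.99, SE 0.33), and its somatic copy gammaTub23C was not called (0.18, adjusted p = 0.0239). alphaTub67C, the maternal alpha-tubulin, was at 245, 224 and 254, against 18.3, 15.1 and 13.7 in yw (3.96, SE 0.26). Of the sarcomere proteins, Obsc had 912, 1059 and 957, against 205, 139 and 167 in yw (2.52, SE 0.12) and Mlc2 594, 600 and 646, against 81.9, 76.8 and 86.8 in yw (2.90, SE 0.14), whereas Mf fell by 0.54. Muscle markers summed to 156 to 172 CPM in the L(3)mbt mutant and 125 to 148 CPM in yw, with Mlc1 under 1 CPM.

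Cilium genes gave 12 higher (36.4%, beside 18.1% of all genes) and 1 lower among 33 tested (48 listed). Their median was 0.75, or 0.65 with genes at the yw floor set to their bounds. The median yw mean of the list was 38.4 normalized counts, and 29.4% of all tested genes at 10 to 100 were higher. IFT52, part of the intraflagellar transport train, had 987, 875 and 980 normalized counts in the L(3)mbt mutant, against 47.4, 37.2 and 30.4 in yw (4.66, SE 0.16). rempA, also a transport protein, was at 3282, 3566 and 3286, against 1055, 1045 and 912 in yw (1.75, SE 0.08). The outer-segment transport gene Oseg5 was lower, with 2369, 2383 and 2179, against 3017, 3003 and 3040 in yw (-0.39, SE 0.06). Chaperones gave 13 higher and 3 lower among 32. The small heat shock proteins Hsp67Bc and Hsp23 rose by 3.03 and 0.81 and Hsp68 by 1.10, while the mitochondrial co-chaperone Hsc20 fell by 0.80. Per the labels all groups were reared at 29 °C.

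**Figure D4:**
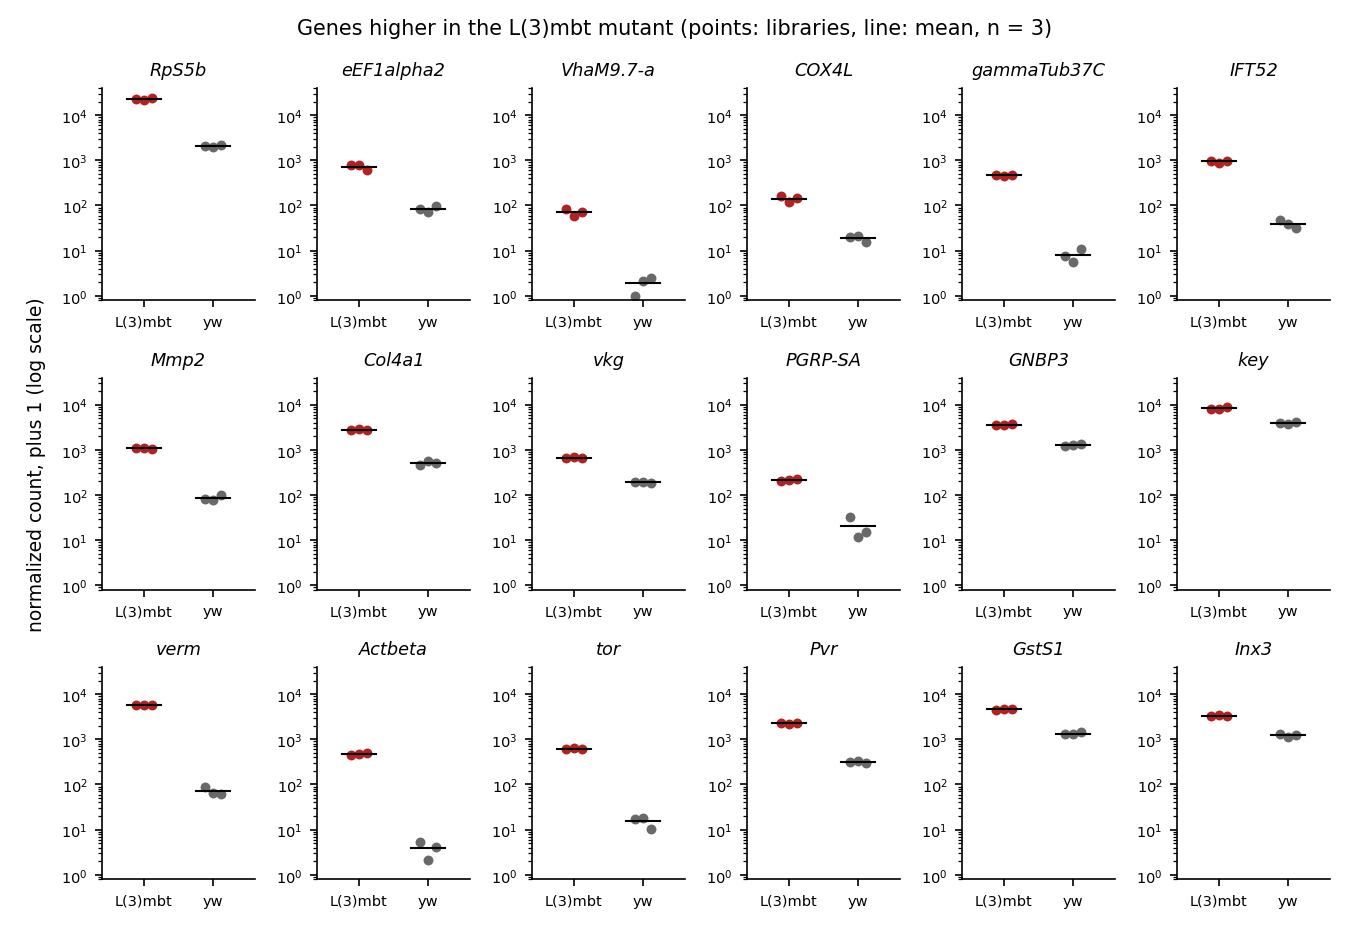
Normalized counts plus 1 (log scale) of 18 genes called higher, 1 panel each, with the L(3)mbt mutant (red, left) and yw (grey, right), points for the 3 libraries of each group and black lines for means. In all 18 panels the points of the L(3)mbt mutant lie above those of yw, by the widest margin for Actbeta among the genes with reads in all yw libraries.

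In growth factor signalling, 8 of 45 genes tested were higher (17.8%) and 10 lower (22.2%), beside 18.1% and 12.6% of all genes. tor, the receptor tyrosine kinase of the embryonic termini, had 607, 626 and 610 normalized counts in the L(3)mbt mutant, against 16.2, 17.5 and 9.13 in yw (5.50, SE 0.24). Pvr, the receptor for PDGF- and VEGF-like ligands, was at 2294, 2202 and 2331, against 306, 336 and 303 in yw (2.86, SE 0.08). btl, an FGF receptor, had 535, 493 and 511, against 131, 128 and 168 in yw (1.83, SE 0.13). The receptor kinase Ror rose by 1.08, and so did Nrk by 0.75.

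Several ligands were lower. Pvf3 and Pvf2, which bind Pvr, fell by 0.55 and 0.35 on the log2 scale. Of the EGF receptor ligands, spi had 5693, 5638 and 5377 normalized counts in the L(3)mbt mutant, against 7229, 7300 and 7272 in yw (-0.38, SE 0.05), and vn had 318, 341 and 280, against 497, 452 and 472 in yw (-0.60, SE 0.11). grk, the EGF ligand of the oocyte, was higher (0.42). ths, an FGF, was at 678, 737 and 695, against 1452, 1556 and 1025 in yw (-0.93, SE 0.12). The insulin-like peptide Ilp6 fell by 0.33. drk, the adaptor that links these receptors to Ras, was lower (-0.52, SE 0.09), and so was the receptor sev (-0.42). Of the 10 lower genes, 1 fell by at least 2-fold and is not named here. The list was fixed as a whole, and no count of receptors against ligands was made.

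Other pathways had few called members. Of 23 BMP and activin genes, 3 were higher (13%, beside 18.1% of all genes), among them the ligand Actbeta and the protease tok (3.20). Another 3 were lower (13%, beside 12.6%), a number that was 5 without yw replicate 3. Wnt2 rose by 1.63 and Wnt4 by 2.41, whereas the receptor fz2 fell by 0.31. shf, which aids Hedgehog spread, was the called member among 13 Hedgehog genes, with 505, 466 and 471 normalized counts in the L(3)mbt mutant, against 98.1, 85 and 92.1 in yw (2.39, SE 0.14). Of the Notch list, Delta rose by 0.85 and numb, an inhibitor, by 0.61, while the protease kuz fell by 0.34. Stat92E, the transcription factor of the JAK-STAT pathway, was lower, with 13339, 13707 and 14181, against 17365, 19234 and 16863 in yw (-0.37, SE 0.06).

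Among protein-coding genes averaging 100 normalized counts or more, the deepest decrease was that of mthl9, a receptor of the methuselah family of G protein-coupled receptors, of which mth is known from long-lived mutants. mthl9 (chromosome 3L, 329822 to 332309) had 158, 157 and 188 normalized counts in the L(3)mbt mutant, against 2196, 2322 and 2367 in yw (-3.77, SE 0.10). mth, which lies near it (343378 to 346957), was at 168, 161 and 149, against 959, 996 and 950 in yw (-2.60, SE 0.10). Other members of the family were higher, 5 of 13 in all (38.5%, beside 18.1% of all genes). mthl14 had 912, 989 and 757, against 184, 177 and 142 in yw (2.41, SE 0.12), and mthl7 was raised 95.3 times (interval 48.1 to 221) from 8 yw reads.

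The 10 deepest decreases under the same minimum also held enzymes and proteases. Galt, which converts galactose-1-phosphate, had 131, 133 and 157 normalized counts in the L(3)mbt mutant, against 901, 1023 and 1075 in yw (-2.83, SE 0.12). Cyp6d5, a cytochrome P450, had 2347, 2646 and 2472, against 8107, 7424 and 8624 in yw (-1.70, SE 0.07). flz, a serine protease of tracheal development, was at 259, 304 and 269, against 1108, 933 and 1023 in yw (-1.89, SE 0.11), and sona, a metalloprotease that promotes Wnt signalling, fell by 1.63. thw had 355, 405 and 350, against 2151, 2192 and 2058 in yw (-2.53, SE 0.09). CG43968 was also among the top 10 (-1.70, SE 0.41), but its yw values of 1346, 1249 and 473 were uneven.

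**Figure D5:**
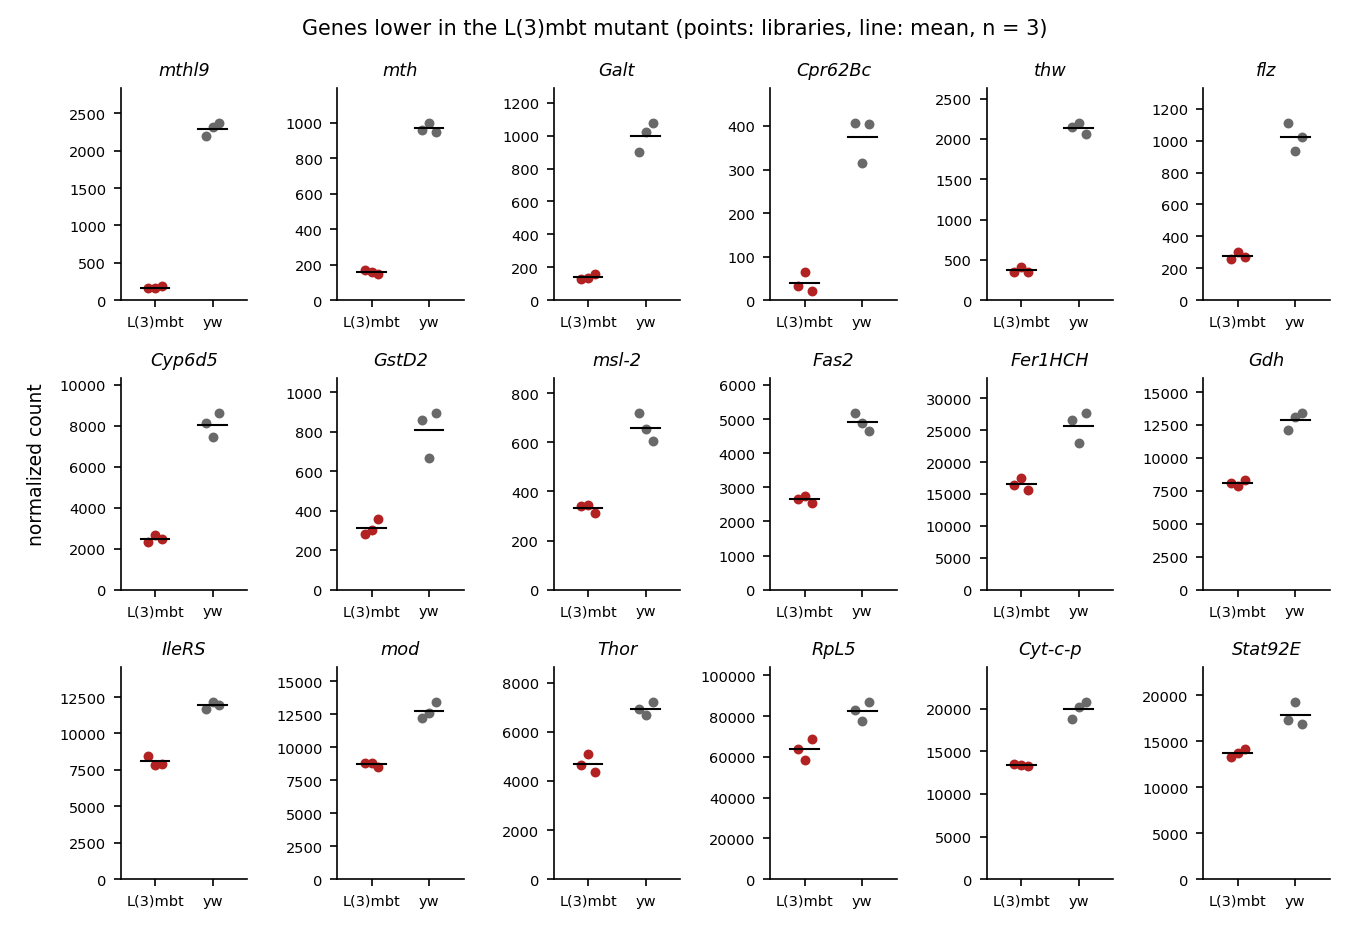
Normalized counts on linear axes from 0 for 18 genes called lower, 1 panel each, with the L(3)mbt mutant (red, left) and yw (grey, right), points for the 3 libraries of each group and black lines for means. The panels run from the deepest decrease, mthl9, to shallow ones such as RpL5 and Stat92E, and the groups are separate in every panel.

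Genes of middle rank were named by abundance and the extremes by size of change, so the functions of the 2 sets cannot be compared directly. Between the 40th and 60th percentile of size, 388 higher genes had increases of 1.83- to 3.27-fold and 268 lower genes decreases of 1.24- to 1.3-fold. The most abundant of the higher ones included key, GNBP3, Plod, Inx3 and cac, described above, and GstO3, a glutathione S-transferase of the omega class, with 4243, 3597 and 4456 normalized counts in the L(3)mbt mutant, against 1506, 1342 and 1503 in yw (1.50, SE 0.08). ovo, a zinc finger factor of the female germline and of epidermis, was at 2875, 2833 and 2652, against 1367, 1395 and 1312 in yw (1.04, SE 0.06). rgr, CG17224 and CG11141 rose by 0.95, 1.32 and 1.07.

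Picking by abundance favours highly expressed genes. Besides RpL5, RpL29 and Stat92E, the most abundant middle-rank decreases held RpL35A (-0.32) and ThrRS, which charges tRNA with threonine (-0.36). They also held Phb2, a mitochondrial prohibitin (-0.32), and Nup98-96, which encodes 2 nuclear pore proteins (-0.36). Dcr-2, the dicer of the siRNA pathway, had 13390, 14397 and 12785 normalized counts in the L(3)mbt mutant, against 17335, 16904 and 17126 in yw (-0.34, SE 0.06). lost and Gtpx fell by 0.36 and 0.34. Lists also differed in where their calls ranked. All 15 higher kinetochore and spindle genes and 10 of 11 higher replication genes were below the 40th percentile of increases, whereas 13 of 20 higher germline development genes were above the 60th. Of the 20 higher Toll and Imd genes, 5 were above it, 6 in the middle and 9 below.

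Of 74 cytochrome P450 genes tested, 16 were higher (21.6%) and 8 lower (10.8%), near the shares of all genes. Cyp301a1 rose by 2.42, with 872, 952 and 776 normalized counts in the L(3)mbt mutant, against 141, 164 and 179 in yw. GstS1, an abundant glutathione S-transferase, was at 4576, 4663 and 4809, against 1287, 1283 and 1444 in yw (1.80, SE 0.06), and GstD2 at 282, 302 and 359, against 860, 668 and 896 in yw (-1.36, SE 0.13). Antioxidant genes split as well. Sod1, cytoplasmic superoxide dismutase, rose by 0.40 and Cat, catalase, fell by 0.51. Both ferritin chains, which store iron, were lower, Fer1HCH with 16334, 17538 and 15674, against 26547, 22933 and 27712 in yw (-0.64, SE 0.07), and Fer2LCH by a log2 fold change of -0.61.

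Intermediary metabolism went both ways. Of 27 glycolysis and sugar genes, 3 were higher (11.1%) and 7 lower (25.9%), beside 18.1% and 12.6% of all genes. Their median yw mean was 3969, and 22.6% of all genes at 1000 to 10000 were lower. Of 24 tricarboxylic acid cycle genes, 5 were higher (20.8%) and 1 lower (4.17%). The higher ones numbered 3 by edgeR and without L(3)mbt replicate 3 or yw replicate 1. Gdh, which interconverts glutamate and 2-oxoglutarate, had 8127, 7879 and 8311 normalized counts in the L(3)mbt mutant, against 12137, 13092 and 13419 in yw (-0.67, SE 0.07). Glycolytic Hex-A, Ald1 and PyK fell by 0.32, 0.30 and 0.29, and fbp, which runs gluconeogenesis in the opposite sense, rose by 2.69, with 411, 426 and 450, against 63.6, 50 and 81.5 in yw. Idh and kdn (citrate synthase) rose by 0.59 and 0.50. Among 43 transporters, 15 were higher (34.9%, beside 18.1% of all genes) and 5 lower (11.6%, beside 12.6%). The drug exporter Mdr49 had 334, 366 and 342, against 124, 101 and 92.1 in yw (1.72, SE 0.15), the amino acid transporter path 6457, 6060 and 7467, against 12171, 13719 and 9770 in yw (-0.84, SE 0.14), and the trehalose transporter Tret1-1 fell by 0.49.

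Cell cycle genes moved by small amounts. Of 46 replication genes, 11 were higher (23.9%, beside 18.1% of all genes) and 2 lower, with 18 higher under total counts. Mcm3, a helicase subunit, had 5822, 5359 and 6486 normalized counts in the L(3)mbt mutant, against 3961, 3688 and 4135 in yw (0.58, SE 0.08), and the licensing factor dup 3865, 4145 and 4015, against 2916, 2556 and 2904 in yw (0.52, SE 0.07). CycJ stood apart among the cyclins, at 1687, 1588 and 1466, against 319, 270 and 311 in yw (2.39, SE 0.09), while CycE rose by 0.41 and CycG fell by 0.47. Of the kinetochore and spindle list, 15 of 61 were higher (24.6%), with 9, 8 and 9 without L(3)mbt replicate 1, yw replicate 1 and yw replicate 2.

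Of 47 repair and checkpoint genes, 7 were higher (14.9%, beside 18.1% of all genes) and 11 lower (23.4%, beside 12.6%). Their median yw mean was 1149, and 22.6% of all genes at 1000 to 10000 were lower. These counts of repair genes were 11 and 6 with total counts. Lower genes numbered 7 without L(3)mbt replicate 1 or 3, and higher ones 3 without L(3)mbt replicate 1 or yw replicate 1 and 4 without yw replicate 2. mei-41, the ATR kinase, had 648, 611 and 597 normalized counts in the L(3)mbt mutant, against 889, 890 and 864 in yw (-0.51, SE 0.09). p53 was at 1643, 1520 and 1675, against 1078, 1072 and 1109 in yw (0.57, SE 0.07), with 38.01% of its exons shared with other genes. Of 27 cell death genes, 6 were higher (22.2%) and 3 lower (11.1%), near the shares of all genes. With total counts 10 were higher. The caspase Strica rose by 1.44, and Debcl, a Bcl-2 family protein, had 1239, 1284 and 1145, against 455, 463 and 438 in yw (1.44, SE 0.08). The death genes rpr and hid were not called (0.14 and -0.10, adjusted p = 0.776 and 0.707).

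Of 15 LINT and dREAM genes 4 were higher (26.7%, beside 18.1% of all genes) and 1 lower (6.67%, beside 12.6%). mip130 and mip120 rose by 0.41 and 0.36 and the calls of the other 2 were lost in several settings, while l(3)mbt was the lower one. Of 15 insulator proteins 5 were higher (33.3%) and 2 lower (13.3%). Higher ones numbered 8 under total counts, 2 without yw replicate 1 and 3 without L(3)mbt replicate 1, L(3)mbt replicate 3 or yw replicate 2. Of 17 histones and histone chaperones 5 were higher (29.4%) and 3 lower (17.6%). Higher ones numbered 3 by edgeR or with TMM factors and 2 without L(3)mbt replicate 1 or yw replicate 2. Of 18 Polycomb genes 2 were higher (11.1%), Sfmbt (0.33), which also carries MBT repeats, and esc (0.30), and Psc was lower (-0.39). Mediator, the coactivator between enhancers and RNA polymerase II, had 9 lower and no higher genes among 27 (median -0.22), among them MED20 (-0.39). Its share of lower genes was 33.3%, beside 12.6% of all genes. By level, 12.5% of all genes were lower at a yw mean of 100 to 1000 and 22.6% at 1000 to 10000. Median yw means were 1008 for Mediator and 2824 for the spliceosome. Lower Mediator genes numbered 3 without L(3)mbt replicate 1 and 5 without yw replicate 3 or with total counts. The spliceosome had 13 lower (30.2%) and no higher among 43, and 8 lower without L(3)mbt replicate 1. With total counts 7 were lower and 2 higher. Cdc5 had 1442, 1330 and 1415 normalized counts in the L(3)mbt mutant, against 2182, 2334 and 2274 in yw (-0.70, SE 0.07). msl-2, which limits dosage compensation to males, was at 340, 344 and 311, against 720, 654 and 605 in yw (-0.99, SE 0.11). The other 2 dosage compensation markers, roX1 and roX2, were higher (0.52 and 3.29), with roX2 at no more than 1.16 CPM. Of 19 sex determination and dosage compensation genes tested, 3 were higher (15.8%) and 1 lower (5.26%).

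Last, the L(3)mbt mutant was set against the Lint-O mutant directly. Of 9097 genes tested, 1358 differed (14.9%), with 839 above the Lint-O level in the L(3)mbt mutant (9.22%) and 519 below it (5.71%). Genes called in both this comparison and the one with yw were ranked, under the same minimum mean of 100 normalized counts. The 10 that differed most were all higher in the L(3)mbt mutant. That mean was taken over the L(3)mbt and yw libraries only. The shared direction is no result, since genes near 0 in yw passed the minimum only through the L(3)mbt mutant. Pxt had 431, 405 and 351 normalized counts in it, against 30.2, 26.3 and 29.6 in the Lint-O mutant (3.78, SE 0.22). verm was at 5624, 5891 and 5781, against 841, 807 and 909 in the Lint-O mutant (2.76, SE 0.07). hebe had 448, 382 and 435, against 46.8, 38.9 and 52.9 in the Lint-O mutant (3.20, SE 0.19). The others were alpha-Catr, CG9068, CG33257, Actbeta, CG15760, CG4596 and CG6324, with log2 differences of 3.28 to 2.64.

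Strongly lower genes were also further down in the L(3)mbt mutant. mthl9 had 158, 157 and 188 normalized counts in it, against 879, 832 and 937 in the Lint-O mutant (-2.39), and flz 259, 304 and 269, against 837, 878 and 1092 in the Lint-O mutant (-1.76). RpS5b was at 22850, 21877 and 24352, against 7832, 7340 and 8136 in the Lint-O mutant (1.57). IFT52 and cac were not called between the mutants (-0.07, adjusted p = 0.641, and -0.01, adjusted p = 0.95). The protease Mmp1 was higher in the L(3)mbt mutant than in the Lint-O mutant (0.68), with 2858, 2951 and 2657, against 1691, 1741 and 1840, although it was lower than in yw.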

How the data were processed

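The authors aligned ribosome-depleted reads of a stranded poly-A kit to dm6 with HISAT2, and featureCounts is named in the submitters' processing notes. The deposited table holds raw whole-number counts per gene. Its strand setting is not given in the sources used here. Reads in exons shared by 2 genes may be missing, and for genes on opposite strands this depends on that setting. Where they are missing, overlapped genes are measured over the rest of their exons. Symbols, chromosomes and positions came from the BDGP6 annotation (1-based).

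DESeq2 1.42.0 (R 4.3.3) was fitted to all 9 libraries with 1 coefficient per group, median-of-ratios size factors and default Cook's and independent filtering. Wald tests were two-sided, with Benjamini-Hochberg adjustment over all genes tested and calls at an adjusted p under 0.01. Values are normalized counts. The fit was tested on simulated data. Where nothing shows that libraries came from separate animals, p-values measure only the spread between these libraries.

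A gene with no count can be present at up to 3 counts (0.0952 to 0.161 CPM). Such floors and the 95% exact intervals cover counting error only, since reads carry no molecular identifiers.

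Genes were named by rule: the 10 largest changes per direction among protein-coding genes with a mean of at least 100, non-overlapping groups and at most 50% of exons covered by other genes, piRNA genes left out; the 10 most abundant between the 40th and 60th percentile of size; up to 4 called members per list and direction with a mean of at least 20; the mutated, strain and marker genes; and the 10 that differ most from the Lint-O mutant. Others named were chosen after their values were seen. Members and lists were chosen with earlier results of these data known. Alternatives were edgeR 4.0.16, TMM factors, total counts, no Cook's cutoff or independent filtering, a count minimum of 10, 2 groups only, a replicate block, a 2-fold minimum, a threshold of 0.05 and leaving out each library. Promoter motifs were not analysed here.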

Additional observations from a re-analysis of the deposited data

How the results depend on the processing

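The 1936 higher and 1344 lower genes numbered 1855 and 1550 with edgeR, 1842 and 1665 with TMM factors, 1082 and 74 with a 2-fold minimum, and 1677 to 1887 and 950 to 1278 when 1 library was left out. The 1358 genes that differed from the Lint-O mutant numbered 279 with a 2-fold minimum, 2027 at a threshold of 0.05 and 882 to 1531 when 1 library was left out, the lowest without L(3)mbt replicate 1 (882) and Lint-O replicate 2 (886). A fit of 2 groups gives no value for that comparison. Same-numbered libraries did not visibly deviate together (r of -0.037, -0.085 and -0.167, beside -0.089 to 0.155 for other pairs). With so few libraries these values cannot exclude a pairing by number. The fit with a replicate block gave 1844 higher, 1299 lower and 1257 different genes, and 51 lower cytosolic ribosomal proteins in place of 32. The alternatives were followed for 223 of the named genes. Against yw, 199 of them passed the test, and 194 of these kept their call in every alternative that tested them. That was up to 17 alternatives, the 2-fold minimum not counted, and none of the 223 reversed.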

Other observations

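Chemosensory genes, noncoding RNAs and vesicle traffic were not covered above. Of 268 listed odorant, gustatory and ionotropic receptors and odorant-binding proteins, 85 were tested in the L(3)mbt mutant against yw, 18 were higher (21.2%, beside 18.1% of all genes) and none lower, with 1 lower by edgeR or with TMM factors and up to 2 when 1 library was left out. Obp99a, an odorant-binding protein, had 255, 195 and 277 normalized counts in the L(3)mbt mutant, against 6.47, 6.98 and 10.7 in yw (log2 fold change 4.87, SE 0.33). Ir31a, an ionotropic receptor, was at 138, 149 and 127, against 6.47, 8.15 and 2.28 in yw (4.72, SE 0.40). Of 492 long noncoding RNAs tested, 37 were higher (7.52%) and 23 lower (4.67%), and the lower ones numbered 15 without L(3)mbt replicate 1, yw replicate 1 or yw replicate 2. lncRNA:CR32368 stood out by its level, with 13071, 12541 and 13207, against 854, 660 and 834 in yw (4.04, SE 0.09).

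Of 29 Rab GTPases and regulators, which direct vesicle traffic, 4 were higher (13.8%) and 9 lower (31%, beside 12.6% of all genes). By level, 12.5% of all genes were lower at a yw mean of 100 to 1000 and 22.6% at 1000 to 10000. Median yw means were 1084 for the Rab list and 995 for the autophagy list below. Rab32, known from lysosome-related organelles, had 577, 578 and 603 normalized counts in the L(3)mbt mutant, against 152, 104 and 137 in yw (2.16, SE 0.14). Rab7, of late endosomes, was at 4791, 4945 and 4292, against 6116, 6350 and 5654 in yw (-0.37, SE 0.07). Autophagy genes gave 8 lower (33.3%, beside 12.6% of all genes) and 1 higher among 24. Lower ones numbered 4 without L(3)mbt replicate 1 and 5 without yw replicate 2 or with total counts. Atg9, the membrane protein that seeds autophagosomes, fell by 0.41 on the log2 scale and Atg3, which couples Atg8 to lipid, rose by 0.80, with 1823, 1743 and 1744, against 955, 1057 and 1043 in yw. In the steroid pathway, spo, an enzyme of ecdysone synthesis, was at 429, 360 and 355, against 106, 120 and 101 in yw (1.82, SE 0.15), and Oatp74D, the ecdysone importer, at 6856, 6977 and 7039, against 4651, 5283 and 4395 in yw (0.54, SE 0.07). On chromosome 4, 26 of 100 tested genes were higher (26%, beside 18.1% of all genes) and 7 lower (7%, beside 12.6%).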
